A study of Saccharomyces cerevisiae with 10 samples.

Results

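The histone genes of Saccharomyces cerevisiae were followed through a heat shock in cells lacking KIN82 and in strain DBY8778. The genes were chosen by systematic name as the 8 genes of the core histones, the linker histone gene HHO1 (YPL127C) and HTZ1, the gene of the H2A variant H2A.Z. Of these 10 genes 9 had a row among the 5983 rows of the value table. HTZ1 was not analysed here, so the core histone genes could not be set against it, and HHO1 took its place after the data had been seen.

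Total RNA was measured on 10 arrays, 5 of delKIN82 cells and 5 of DBY8778 cells, with 1 array for each strain at 0, 5, 15, 30 and 60 min of heat shock and a reference RNA in the second channel. KIN82 codes for a protein kinase, and the label delKIN82 marks its deletion. DBY8778 carries no deletion in its label and was taken as the wild type. The labels name no other allele, no temperature, no medium and no makeup of the reference. Titles of the delKIN82 arrays at 0 and 60 min hold the word repeat, while those of all DBY8778 arrays number their heat shock as the second, so the strains may come from different time courses, which cannot be told apart from the deletion. The deletion was not checked on the arrays, since KIN82 was not analysed here, and it is not stated if one culture was sampled at all times.

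Values are log2 ratios of sample over reference RNA, with the median of each array set to 0, so that 0 is the median ratio on that array. They do not compare the RNA amount of one gene with that of another. The deposited logarithm was read as base 2 and the ratio as sample over reference. The direction rests on 25 of 26 chaperone genes (96.2%) that were higher at 15 min than at 0 min in delKIN82 cells, and 24 of 25 (96.0%) in DBY8778 cells. If the base were that of the natural logarithm, every log2 value here would be larger by one factor. Between 5844 and 5949 genes had a value on each array, and all 9 histone genes had a value on all 10.

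Budding yeast carries each core histone gene in a pair of copies, arranged as 4 divergent gene pairs that share an intergenic region, HTA1 with HTB1 and HTA2 with HTB2 for H2A and H2B, and HHT1 with HHF1 and HHT2 with HHF2 for H3 and H4. In the RefSeq gene table each of these pairs was divergent with 0 protein-coding genes between its members. Transcription of the core genes is known to be confined largely to late G1 and S phase, when new DNA is packaged. Outside it some of these gene pairs, though not all, are known to be repressed by the HIR corepressor with the histone chaperones Asf1 and Rtt106. The H3 proteins of HHT1 and HHT2 are identical, as are the H4 proteins of HHF1 and HHF2, and nothing used here describes the array probes, so the copies of a histone may not have been measured separately. Heat shock is known to hold yeast cells in G1 for a time. In RNA from whole cultures, fewer cells in S phase and less histone RNA per cell cannot be told apart.

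All 8 core histone genes were lower at 30 min of heat shock than at 0 min, by 2.21-fold to 3.9-fold, and all 8 were higher again at 60 min than at 30 min, by 2.3-fold to 4.14-fold. HHO1 showed neither change beyond its error. In a limma fit over all genes with time and strain as terms and Benjamini-Hochberg adjustment, all 8 core genes varied over the time course (F test, adjusted p between 0.000335 for HTA2 and 0.0153 for HTB1), where 23.4% of 5734 genes were called. HHO1 was not called (adjusted p = 0.906). Without the delKIN82 30 min array the F test called 4 of the 8.

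**Figure D1:**
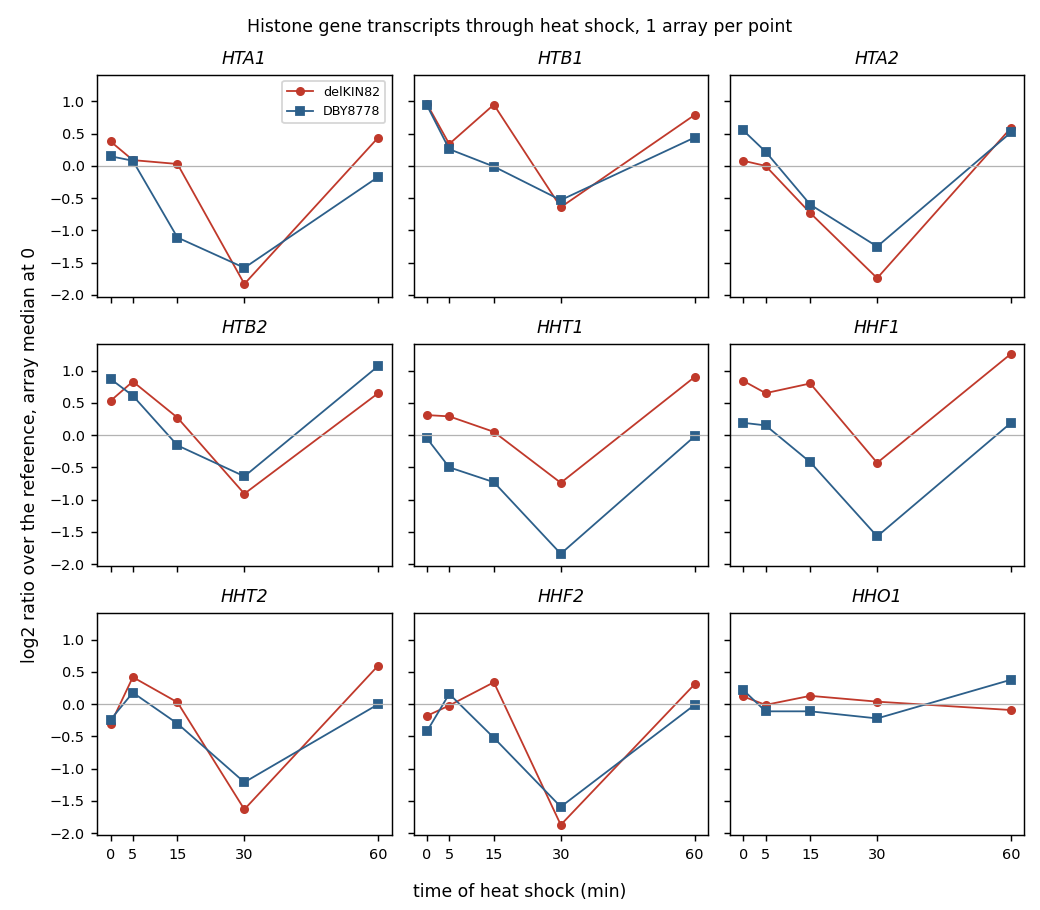
Log2 ratio over the reference (array median at 0) of 9 histone genes against time of heat shock in min, with 1 array per point, delKIN82 as red circles and DBY8778 as blue squares. Every core histone gene has its lowest point at 30 min in both strains, while HHO1 stays between -0.22 and 0.38.

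The first gene pair encodes H2A and H2B. HTA1 (YDR225W), an H2A gene, was at 0.38, 0.09, 0.03, -1.83 and 0.44 at 0, 5, 15, 30 and 60 min in delKIN82 cells. In DBY8778 cells HTA1 was at 0.15, 0.08, -1.11, -1.58 and -0.17. Both 30 min arrays lay below all 8 other arrays, and the DBY8778 array at 15 min was the next lowest. HTB1 (YDR224C), the H2B gene beside it, was at 0.96, 0.34, 0.95, -0.64 and 0.79 in delKIN82 cells and at 0.94, 0.26, -0.01, -0.53 and 0.44 in DBY8778 cells. The strains were within 0.1 of each other at 0 and 5 min and were separated by 0.95 at 15 min, before both reached their lowest value at 30 min.

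HTA2 and HTB2 form the second pair of H2A and H2B genes. HTA2 (YBL003C) was at 0.08, 0.00, -0.73, -1.74 and 0.59 in delKIN82 cells and at 0.55, 0.22, -0.60, -1.25 and 0.52 in DBY8778 cells. Its 4 arrays at 15 and 30 min were the only ones below 0. HTB2 (YBL002W) was at 0.53, 0.83, 0.27, -0.91 and 0.65 in delKIN82 cells, against 0.87, 0.61, -0.16, -0.64 and 1.07 in DBY8778 cells. Here the 0, 5 and 60 min arrays of the strains overlapped and the 30 min arrays lay apart.

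Among the H3 and H4 genes, HHT1 and HHF1 were higher in delKIN82 cells at every time. HHT1 (YBR010W), an H3 gene, was at 0.31, 0.29, 0.05, -0.74 and 0.90 in delKIN82 cells, against -0.05, -0.50, -0.73, -1.84 and -0.02 in DBY8778 cells. HHF1 (YBR009C), the H4 gene paired with it, was at 0.84, 0.65, 0.80, -0.43 and 1.26 in delKIN82 cells, against 0.19, 0.15, -0.42, -1.57 and 0.19 in DBY8778 cells. At 30 min the delKIN82 array of each gene lay more than 1 log2 unit above the DBY8778 array, although both were below the 0 min arrays.

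HHT2 and HHF2, the second pair of H3 and H4 genes, had 30 min values that were lower in delKIN82 cells. HHT2 (YNL031C) was at -0.31, 0.42, 0.03, -1.63 and 0.60 in delKIN82 cells and at -0.24, 0.18, -0.30, -1.21 and 0.00 in DBY8778 cells. HHF2 (YNL030W) was at -0.18, -0.02, 0.34, -1.87 and 0.31 in delKIN82 cells and at -0.42, 0.16, -0.52, -1.59 and -0.01 in DBY8778 cells. Both genes started at or below -0.18 and ended above that level in each strain at 60 min, which the fit did not separate from error.

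HHO1, which encodes the linker histone that binds DNA between nucleosomes, kept a narrow range. Its values were 0.12, -0.01, 0.13, 0.04 and -0.09 in delKIN82 cells and 0.22, -0.11, -0.11, -0.22 and 0.38 in DBY8778 cells. The strains overlapped and no time stood apart. HHO1 is 1 of 338 rows whose deposited values have at most 2 decimals on every array, for a reason that is not stated, while the core histone rows carry more.

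At 5 min of heat the core histone genes had no shared direction. Fitted changes against 0 min lay between -0.65 (HTB1) and 0.57 (HHT2) with a median of -0.15, against -0.01 over all genes. limma called 0 of 8, with 0 at an unadjusted p under 0.05 and a lowest adjusted p of 0.233, where 8.52% of all genes were called. At 15 min the H2A and H2B genes had fitted changes of -0.80 ± 0.33 (SE) for HTA1, -0.48 ± 0.31 for HTB1, -0.98 ± 0.28 for HTA2 and -0.65 ± 0.30 for HTB2. Of these only HTA2 fell by the test (limma adjusted p = 0.0195, range over alternatives 0.0151 to 0.203), 1 of 8 core genes in a comparison that called 14.1% of all genes lower. The unadjusted p was under 0.05 for 3 of 8 core genes, HTA1, HTA2 and HTB2, and for 1991 of 5742 genes. Of the H3 and H4 genes, HHT1 and HHF1 were at -0.47 ± 0.29 and -0.33 ± 0.29, close to HTB1, and HHT2 and HHF2 at 0.14 ± 0.31 and 0.21 ± 0.32. Whether the H2A and H2B genes differ from the H3 and H4 genes at 15 min was not tested. With 1 array per strain at 15 min, the median change over the 8 genes was -0.15 in delKIN82 cells and -0.81 in DBY8778 cells, a difference that was not tested at this time. All 8 were below their 0 min value in DBY8778 cells and 6 were in delKIN82 cells. In delKIN82 cells the changes at 5 and 15 min set arrays without the word repeat against a 0 min array with it. HTA2 lost the call without either 0 min array, without either 15 min array, without both arrays titled repeat, and after quantile normalization (-0.94, limma adjusted p = 0.062).

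At 30 min all 8 core genes fell, where limma called 8.14% of 5740 genes lower. HTA1 fell by 1.96 ± 0.33 (SE) on the log2 scale (limma adjusted p = 0.00131) and HTA2 fell by 1.81 ± 0.28 (adjusted p = 0.000883). HTB1 and HTB2, the H2B genes, were at -1.53 ± 0.31 and -1.48 ± 0.30. The H4 genes HHF1 and HHF2 were at -1.52 ± 0.29 and -1.43 ± 0.32, and the H3 genes HHT1 and HHT2 at -1.42 ± 0.29 and -1.15 ± 0.31. The limma adjusted p of these 6 genes lay between 0.00293 (HHF1) and 0.0213 (HHT2). For each of the 8 genes both 30 min arrays lay below both 0 min arrays, which describes the same fall and is not a further test. The share of all genes with this separation is not given here. In delKIN82 cells the change crosses from a 0 min array with the word repeat in its title to a 30 min array without it. In DBY8778 cells it does not. Without both arrays titled repeat the estimates of the 8 core genes at 30 min lay between -2.0 (HTA1) and -1.2 (HHT2). By strain, the median change was -1.52 in delKIN82 cells (range -2.21 to -1.05) and -1.62 in DBY8778 cells (range -1.80 to -0.96), while the median of all genes was 0.02 in each.

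These changes placed the core genes among the lowest 9.98% of genes in both strains. Between 1.17% and 9.74% of all genes had a change below that of a core histone gene in delKIN82 cells at 30 min, and between 2.85% and 9.98% in DBY8778 cells. At 15 min the same shares ran from 18.5% to 73.8% in delKIN82 cells and from 9.93% to 43.7% in DBY8778 cells. The time of the lowest value was also shared, since all 8 core genes were lowest at 30 min in both strains, as were 142 of 5170 genes with all values (2.75%). That pattern was noticed in the data. The estimates at 30 min stayed between -2.34 and -0.80 under every alternative, but the calls rested on the arrays compared: limma called 2 of 8 (HTA1 and HTA2) without the DBY8778 0 min array and 4 without the delKIN82 30 min array.

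**Figure D2:**
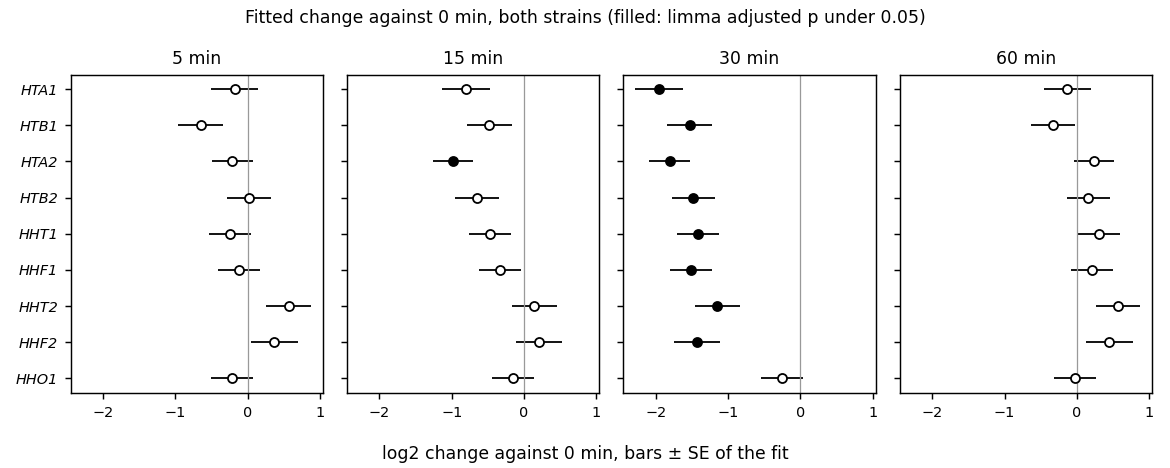
Fitted log2 change against 0 min over both strains for 9 histone genes (rows) at 5, 15, 30 and 60 min (panels), with bars of ± 1 SE of the limma fit and filled points for an adjusted p under 0.05. The 8 core genes are filled at 30 min, between -1.96 and -1.15, HTA2 alone is filled at 15 min, and HHO1 is open throughout.

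The step from 15 to 30 min was negative for all 8 core genes in each strain. Its median was -1.41 in delKIN82 cells and -0.78 in DBY8778 cells, and it was 0.00 and 0.01 over all genes. In the fit, a contrast added after the data had been seen, HHF2 fell by 1.64 ± 0.32 (SE) on the log2 scale (limma adjusted p = 0.0202), and it was the 1 core gene called where 0.523% of all genes were called lower. HHT2 was at -1.28 ± 0.31 (adjusted p = 0.0501) and HHF1 at -1.19 ± 0.29 (adjusted p = 0.054). The estimates of the other 5 lay between -1.16 and -0.83. All 8 had an unadjusted limma p under 0.05, as did 930 of 5738 genes. HHF2 kept its call in 8 of 15 alternatives.

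Between 30 and 60 min all 8 core genes rose. This contrast was also added after the data had been seen, and limma called 2.39% of 5740 genes higher in it. HTA2 rose by 2.05 ± 0.28 (SE, log2; limma adjusted p = 0.00285), HHF2 by 1.88 ± 0.32, HTA1 by 1.83 ± 0.33, HHF1 and HHT1 by 1.73 ± 0.29 each, HHT2 by 1.72 ± 0.31 and HTB2 by 1.64 ± 0.30. HTB1 had the smallest rise, 1.20 ± 0.31 (adjusted p = 0.0459). The rise ran from 1.43 to 2.34 in delKIN82 cells and from 0.97 to 1.81 in DBY8778 cells, with a median of all genes of -0.02 and 0.00. In delKIN82 cells it crosses from an array without the word repeat to one with it, and in DBY8778 cells it does not. limma called 0 of 8 without the delKIN82 30 min or 60 min array, 1 without the DBY8778 60 min array and 4 without the DBY8778 30 min array, with all estimates still at 0.97 or above.

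**Figure D3:**
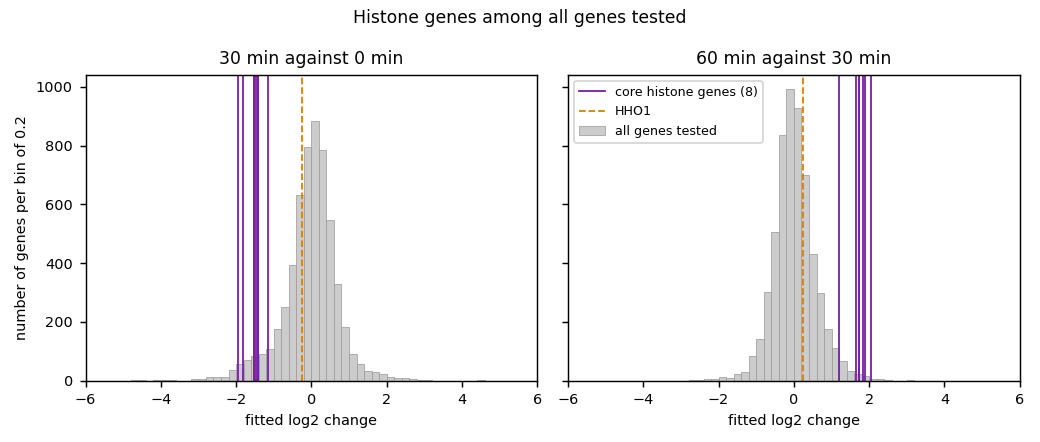
Number of genes per bin of 0.2 against the fitted log2 change at 30 min against 0 min (left) and at 60 min against 30 min (right), with purple lines for the 8 core histone genes and a dashed orange line for HHO1. The core genes lie between -1.96 and -1.15 on the left and between 1.20 and 2.05 on the right, while HHO1 is at -0.26 and 0.23.

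After 60 min the core genes were near their level at 0 min. Fitted changes against 0 min lay between -0.33 (HTB1) and 0.57 (HHT2), and limma called 0 of 8 with 0 at an unadjusted p under 0.05 (lowest adjusted p = 0.383), where 1.39% of all genes were called. The median change was 0.45 in delKIN82 cells (range -0.16 to 0.91), with 7 of 8 genes above their 0 min value. In DBY8778 cells it was 0.01 (range -0.50 to 0.41), with 4 of 8 above. In the average over 5 to 60 min HTA2 was the 1 core gene called lower (-0.69 ± 0.22, limma adjusted p = 0.0474, range over alternatives 0.0424 to 0.488), where 10.3% of all genes were. HTA1 at -0.77 ± 0.26 (adjusted p = 0.0624, range 0.0181 to 0.437) and HTB1 at -0.75 ± 0.25 (adjusted p = 0.0515, range 0.0141 to 0.488) had larger estimates and missed the threshold. Of 15 alternatives, 4 called HTA2, 3 called HTA1 and 7 called HTB1. In this average the unadjusted limma p was under 0.05 for 3 of 8 core genes, HTA1, HTB1 and HTA2, and for 1624 of 5734 genes.

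HHO1 was at -0.22, -0.15, -0.26 and -0.03 against 0 min at 5, 15, 30 and 60 min, each with an SE of 0.29 (limma adjusted p between 0.648 and 0.985). At 30 min its 95% confidence interval ran from -0.88 to 0.36, so a fall of the size of that of HHT2 lies outside it, while a change of -0.88 or nearer to 0 on that side does not. To test the difference itself, the value of HHO1 was subtracted from that of every gene on each array and the fit was repeated. The noise of HHO1 thus enters every gene, so the results of the 8 core genes relative to HHO1 are not independent of each other. At 30 min 6 of 8 core genes fell more than HHO1, where 4.41% of all genes did so, with HTA1 at -1.71 ± 0.40 (SE, limma adjusted p = 0.00833) and HTA2 at -1.56 ± 0.38 (adjusted p = 0.0103). HHF2 at -1.17 ± 0.39 (adjusted p = 0.0612) and HHT2 at -0.89 ± 0.40 (adjusted p = 0.176) missed the threshold. limma called 0 of 8 in this comparison without either 0 min array or without the delKIN82 30 min array, 3 without the DBY8778 30 min array and 2 without both arrays titled repeat. In the heat average 0 of 8 differed from HHO1, with 0 at an unadjusted p under 0.05, where 12.2% of all genes did.

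The profiles of the core genes resembled each other over the 10 arrays, which they share, as a description with no test. Pearson's r between 2 core genes lay between 0.64 and 0.976 over 28 pairs, with a median of 0.827 (Spearman's rho 0.37 to 0.976). The 4 divergent neighbours had r between 0.924 (HTA1 with HTB1) and 0.976 (HHT1 with HHF1), and the 4 pairs of copies encoding one histone had r between 0.753 (HHT1 with HHT2) and 0.868 (HTA1 with HTA2). By Pearson's r each gene was closer to its neighbour than to its copy, but by Spearman's rho, which ran from 0.77 to 0.976 for neighbours and from 0.515 to 0.782 for copies, HTA1 was not (0.77 with HTB1 and 0.782 with HTA2). The difference was not tested. HHO1 correlated with the 8 core genes at r between 0.14 and 0.529.

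The 5 other genes most like the mean of the core genes, among 5161 compared, were VMA21, an assembly factor of the vacuolar proton pump (Pearson's r = 0.933, Spearman's rho = 0.891), YJL119C (0.896, 0.794), YRB1, a Ran-binding protein of nuclear transport (0.862, 0.697), YJL135W (0.855, 0.927) and ENV9 (0.846, 0.915). At 30 min their changes were smaller than those of the core genes. At 30 min against 0 min the fitted change was -0.74 for VMA21, -0.42 for YJL119C, -0.67 for YRB1, -0.57 for YJL135W and -0.90 for ENV9.

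Averaged over the 5 times, HHF1 and HHT1 were the core genes that differed between the strains. HHF1 was 1.89-fold higher in delKIN82 cells, a log2 difference of 0.92 ± 0.19 (SE, 95% confidence interval 0.52 to 1.31, limma adjusted p = 0.00901), and HHT1 was 1.73-fold higher, at 0.79 ± 0.18 (interval 0.40 to 1.18, adjusted p = 0.0145). limma called 6.6% of 5744 genes higher in delKIN82 cells. HHF1 differed by 0.65, 0.50, 1.23, 1.14 and 1.07 at 0, 5, 15, 30 and 60 min, and HHT1 by 0.36, 0.79, 0.78, 1.10 and 0.93. Both were higher in 5 of 5 pairs of arrays, the same pairs that gave the called means, so the shared sign is not separate evidence. The share of all genes higher in every pair is not given here. The difference at a single time, 0 min included, rests on 1 array per strain and was not tested, and at 0 min that of HHT1 was smaller in size than the -0.47 of HTA2.

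The copies of these genes gave smaller values. HHT2 differed by -0.06, 0.23, 0.33, -0.43 and 0.60 at the 5 times (0.14 ± 0.19 in the fit, limma adjusted p = 0.697) and HHF2 by 0.24, -0.17, 0.87, -0.28 and 0.32 (0.19 ± 0.20, adjusted p = 0.57). Whether a gene differed more than its copy was tested by subtracting the copy from every gene on each array. HHT1 relative to HHT2 was at 0.66 ± 0.28 (limma adjusted p = 0.153), where 5.66% of all genes were called, and HHF1 relative to HHF2 was at 0.72 ± 0.30 (adjusted p = 0.128), where 6.04% were. The difference between copies was thus not called for either gene after adjustment over all genes. Its unadjusted limma p was 0.0204 for HHT1 and 0.0145 for HHF1, in comparisons added after the data had been seen.

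**Figure D4:**
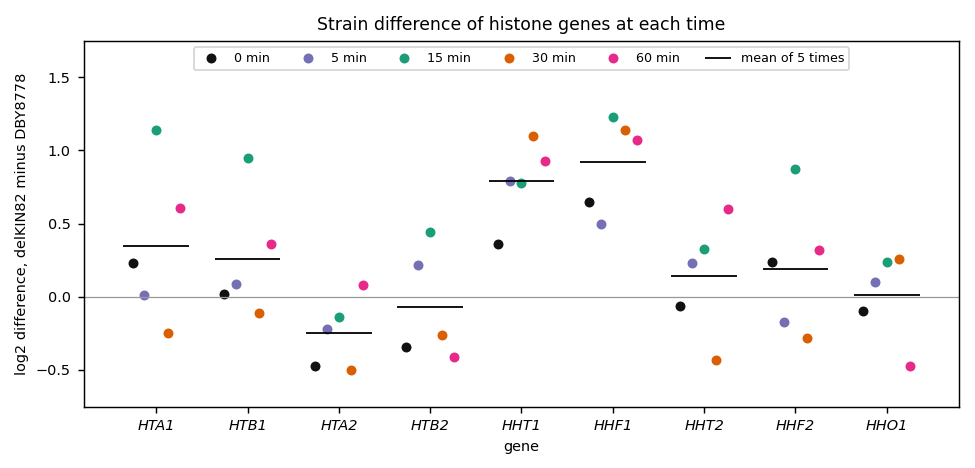
Log2 difference of delKIN82 minus DBY8778 for 9 histone genes, with 1 point per time in colour and a black line at the mean of the 5 times. All 5 points of HHT1 and of HHF1 are above 0, between 0.36 and 1.23, and those of the other 7 genes lie on both sides of 0.

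For the remaining core genes the sign of the difference varied between times. HTA1 differed by 0.35 ± 0.21 (limma adjusted p = 0.307) and HTB1 by 0.26 ± 0.20, and both had their largest difference at 15 min, 1.14 and 0.95. HTA2 was at -0.25 ± 0.18 and HTB2 at -0.07 ± 0.19. HHO1 was at 0.01 ± 0.18 with a 95% confidence interval from -0.38 to 0.40. Relative to HHO1, HHF1 and HHT1 were higher in delKIN82 cells (0.91 ± 0.24, limma adjusted p = 0.0265, and 0.78 ± 0.23, adjusted p = 0.0498), where 3.31% of all genes were. The call of HHT1 against DBY8778 was lost without either 30 min array (0.72) or either 60 min array (0.76), and both calls were lost without both arrays titled repeat, in the 5, 15 and 30 min pairs alone (HHF1 0.96 and HHT1 0.89 in each of these) and in the 0 and 60 min pairs alone (HHF1 0.86, HHT1 0.64). Relative to HHO1, leaving out any 1 array left at most 1 call.

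Whether the strains responded differently to heat was tested with a strain by heat term, which rests on the pair of arrays at 0 min. limma called 0 of 8 core genes, with 0 at an unadjusted p under 0.05, and 0 of 5744 genes (0.0%), of which 130 had an unadjusted p under 0.05. The largest estimate was that of HHT1, 0.54 ± 0.48 (adjusted p = 0.999), and HHO1 was at 0.13 ± 0.50 (95% confidence interval -0.93 to 1.20).

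Genes that act on histones or their transcription were measured on the same arrays. Of 12 regulators of histone transcription 9 could be tested, and at 30 min limma called 0 of them (12.5% of all genes were called in either direction), with a list median of 0.31 against 0.03 over all genes. HIR1, HIR2, HIR3 and HPC2, subunits of the HIR corepressor, were at 0.59 ± 0.31, 0.45 ± 0.27, 0.12 ± 0.31 and 0.40 ± 0.29 (SE, log2). Their limma adjusted p lay between 0.267 (HIR1) and 0.858 (HIR3). ASF1 was at 0.23 ± 0.29, RTT106 at 0.31 ± 0.28, SWI4 at 0.34 ± 0.28 and SWI6 at -0.31 ± 0.32. MBP1, the DNA-binding subunit of the MBF activator of G1/S genes, was at -0.76 ± 0.30 (adjusted p = 0.137). Of 17 histone chaperones and importins tested 1 fell at 30 min, where 8.14% of all genes fell, KAP123, a nuclear importer of histones and ribosomal proteins (-1.09 ± 0.28, adjusted p = 0.0177). KAP123 was also called at 15 min (-1.09 ± 0.28, limma adjusted p = 0.00992), where 14.1% of all genes fell. At 60 min it was still at -0.98 ± 0.28 (adjusted p = 0.108), unlike the core histone genes.

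The remodelling complexes were also measured. In SWR1, which deposits H2A.Z, 0 of 12 subunits were called at 30 min, where 12.5% of all genes were called in either direction. At 15 min 2 rose, where 9.51% of all genes were called higher, SWC5 (1.09 ± 0.33, limma adjusted p = 0.0247) and BDF1 (1.04 ± 0.28, adjusted p = 0.0137). In INO80, a related complex, 0 of 10 subunits were called at any time against 0 min, where the share of all genes called ran from 1.39% at 60 min to 14.1% lower and 9.51% higher at 15 min. CSE4, the H3 variant of centromeres, was at -0.12 ± 0.32 at 30 min (adjusted p = 0.871).

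Genes of DNA replication and of the G1/S transition had 0 calls at 30 min, where 12.5% of all genes were called in either direction. Of 37 DNA replication genes tested the median change at 30 min was 0.07, and at 15 min 2 fell, where 14.1% of all genes fell, POL30, the sliding clamp PCNA (-1.11 ± 0.29, limma adjusted p = 0.0116), and POL3, the catalytic subunit of DNA polymerase delta (-0.91 ± 0.29, adjusted p = 0.0307). POL30 was also the 1 called at 5 min (-1.02 ± 0.29, limma adjusted p = 0.0429), where 8.52% of all genes were called. PSF3, a subunit of the GINS complex of the replication fork, was the 1 called at 60 min (1.18 ± 0.27, adjusted p = 0.0452), where 0.487% of all genes were called higher. Between 30 and 60 min 2 rose, where 2.39% of all genes did, POL3 (1.19 ± 0.29, adjusted p = 0.0337) and the flap endonuclease gene RAD27 (1.15 ± 0.29, adjusted p = 0.0434). Among 5 cyclin genes of the G1/S transition, CLN2, a G1 cyclin, was the 1 called at 15 min (-1.62 ± 0.31, adjusted p = 0.00109), against the same 14.1% of all genes. CLN2 was at -1.12, -1.81, -2.80, -0.71 and 0.24 in delKIN82 cells and at -0.86, -1.83, -2.43, -1.37 and 0.44 in DBY8778 cells. Its lowest value was at 15 min in both strains, and its fitted change at 30 min was -0.05 ± 0.31, at the time when the core histone genes were lowest. By 60 min CLN2 (1.33 ± 0.31, adjusted p = 0.0462) and PCL2, a cyclin of the Pho85 kinase (1.40 ± 0.29, adjusted p = 0.0296), were above their 0 min level, where 0.487% of all genes were called higher. Of the 5 cyclin genes 2 rose between 30 and 60 min, where 2.39% of all genes did. They were CLB6, an S phase cyclin (1.57 ± 0.29, adjusted p = 0.00914), and CLN2 (1.38 ± 0.31, adjusted p = 0.0258). At 30 min against 0 min CLB6 was at -0.58 ± 0.29 (limma adjusted p = 0.229). CLN1, CLB5 and PCL2 were then at 0.15 ± 0.35, 0.02 ± 0.29 and 0.69 ± 0.29. CLB6 was lowest at 30 min in delKIN82 cells (-1.34) and at 15 min in DBY8778 cells (-1.28). A difference in timing between these genes and the core histone genes was not tested.

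**Figure D5:**
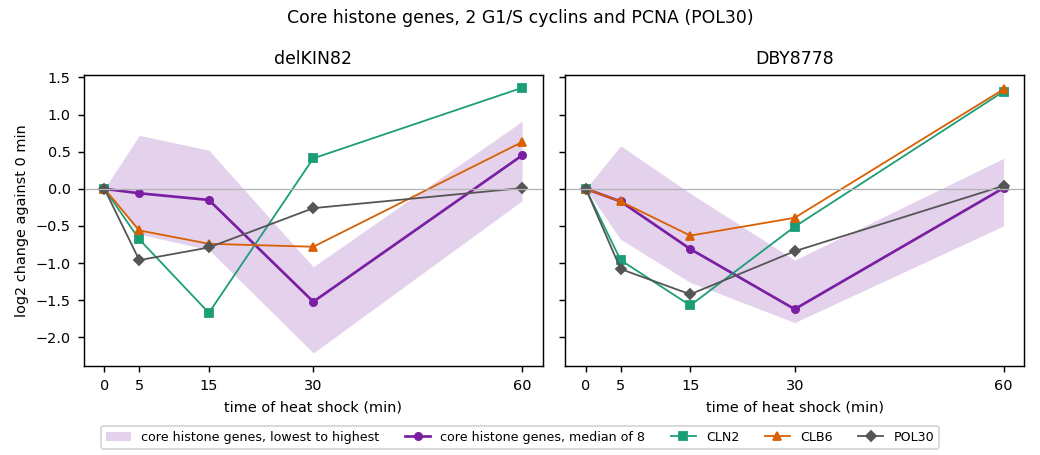
Log2 change against 0 min over time of heat shock in min in delKIN82 (left) and DBY8778 (right), with the median of the 8 core histone genes in purple, a band from their lowest to their highest value, and CLN2, CLB6 and POL30 as separate lines. CLN2 is lowest at 15 min, at -1.67 in delKIN82 and -1.57 in DBY8778, and the core histone median at 30 min, at -1.52 and -1.62. CLN2, CLB6 and POL30 were picked from 5 G1/S cyclin genes and 37 DNA replication genes tested. The median fitted change of these lists at 30 min was 0.02 and 0.07, so the lines do not stand for them.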

How the data were processed

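The deposited values are log ratios per open reading frame, read as log2 from their range, since neither the base nor the direction, dyes, normalization or filters are stated. Deposited array medians lay between -0.15 and 0.03. The members and gene lists were chosen with earlier results of these data known. After median centring, limma 3.58.1 (lmFit and eBayes, R 4.3.3) was run on every gene measured at 0 min in both strains and on 8 or more of the 10 arrays. The model held time (5 levels) and strain and left 4 residual and 11.0 prior degrees of freedom. With 1 array per strain and time, the residual takes in any departure of a strain from the common time course, and p-values measure only the spread between these arrays. Tests were two-sided, with Benjamini-Hochberg adjustment over all genes and calls under 0.05. A strain by heat term left 3 residual degrees of freedom. Comparisons with HTZ1 were planned and could not be run. Those with HHO1 and between copies, and those between neighbouring times, were added after the data had been seen. Symbols came from the RefSeq gene table (assembly R64). The rule for named genes took all members, listed genes and the 5 genes most correlated with the core mean. The fit was tested on simulated data. Spot intensities were not used here, and the number of arrays limits precision.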

Additional observations from a re-analysis of the deposited data

How the results depend on the processing

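Alternatives were no centring, quantile normalization, equal median absolute deviation, complete genes only, leaving out each array in turn, leaving out both arrays titled repeat and, for the strain difference, subsets of the pairs. Leaving out each array in turn, the counts of the 8 core genes called ran from 2 to 8 at 30 min, 0 to 1 at 15 min, 0 to 3 in the heat average, 4 to 8 in the F test, 0 to 4 at 30 against 15 min, 0 to 8 at 60 against 30 min, 1 to 2 between strains, 0 to 7 at 30 min relative to HHO1 and 0 to 1 between strains relative to HHO1. They were 0 throughout at 5 and 60 min, for strain by heat, for the heat average relative to HHO1 and for the copies relative to each other. Without both arrays titled repeat 0 were called in the heat average, at 15 min, at 60 against 30 min and between strains with or without HHO1 subtracted, and 2 at 30 min relative to HHO1. Fewer arrays enter these fits. In the heat average 2 were called with no centring and 2 with complete genes only. Quantile normalization called 0 at 15 min, 0 at 30 against 15 min and 0 between strains relative to HHO1. Equal median absolute deviation called 0 and complete genes only 2 at 30 against 15 min. Between strains, 0 were called in the 5, 15 and 30 min pairs and 0 in the 0 and 60 min pairs, and relative to HHO1 0 and 1. The cause was not tested.

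Signs turned only for estimates that the test had not called. Over fits that left out 1 array or both arrays titled repeat, the heat average ran from -0.09 to 0.16 for HHT2, from -0.21 to 0.01 for HHF2 and, relative to HHO1, from -0.05 to 0.18 for HHF2. At 5 min the ranges were -0.39 to 0.03 (HTA1), -0.22 to 0.2 (HTB2), -0.51 to 0.03 (HHT1) and -0.38 to 0.14 (HHF1), and at 15 min -0.21 to 0.63 (HHF2). At 60 min they were -0.32 to 0.03 (HTA1), -0.03 to 0.44 (HTA2), -0.06 to 0.37 (HTB2), 0.00 to 0.37 (HHF1) and -0.32 to 0.27 (HHO1, 0.16 without both arrays titled repeat). HHO1 ran from -0.26 to 0.05 at 30 against 15 min and from -0.07 to 0.57 at 60 against 30 min. Between strains the ranges were -0.2 to 0.13 (HTB2) and -0.06 to 0.2 (HHO1), and relative to HHO1 -0.15 to 0.03 (HTB2), -0.16 to 0.33 (HHT2) and -0.06 to 0.37 (HHF2). Strain by heat, which could not be fitted without either 0 min array, ran from -0.11 to 0.36 (HTA1) and from -0.29 to 0.1 (HHF2). HTB2 at 5 min was at -0.07 with no centring, -0.26 after quantile normalization and -0.23 with equal median absolute deviation, which put HHF2 at 0.02 in the heat average. HHO1 was at 0.02 at 60 min with no centring, and between strains at -0.04 after either scaling and -0.28 in the 0 and 60 min pairs. In the 5, 15 and 30 min pairs HTB2 was at 0.13, and relative to HHO1 HHT2 was at -0.16 and HHF2 at -0.06, while HTA2 was at 0.09 in the 0 and 60 min pairs. The planned comparisons with HTZ1 were not run. The time term already sets the strains' arrays against each other at each time. Beyond that, no paired analysis was possible because the labels give no replicate numbers and each strain and time has 1 array.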
